A study of Homo sapiens
Mus musculus with 8 samples.

Results

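T cells and natural killer cells act on other cells largely through secreted proteins. Chemokines of the CC group (CCL3, CCL4 and CCL5) draw in monocytes, T cells and other leukocytes through receptors such as CCR1 and CCR3. XCL1 and XCL2 draw in cross-presenting dendritic cells through XCR1. Tumour necrosis factor (TNF) and the lymphotoxins LTA and LTB form 1 family of trimeric ligands whose genes lie side by side in the major histocompatibility complex, interferon gamma (IFNG) activates macrophages and antigen presentation, and transforming growth factor beta 1 (TGFB1) restrains T cells. These 10 genes, of 32738 human and 60736 human and mouse genes in the deposited matrices, were followed in the human lines TALL-104 and Jurkat.

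The study mixed equal numbers of 4 lymphocyte lines and prepared the mixture with several single-cell methods. TALL-104 is a human leukaemic CD8 T line with natural killer features that was grown with interleukin 2. Jurkat is a human T-cell leukaemia line that was grown without it, so that line, medium and interleukin 2 cannot be told apart. EL4 and IVA12 are mouse lines. All were purchased lines. The 10x Genomics droplet libraries comprised 2 of the 3′ v2 kit, 2 of the 5′ v1 kit and 4 of the 3′ v3 kit. The matrices of 7 libraries were used, and 1 of the 3′ v2 libraries was not analysed here. A cell was a barcode with at least 1000 unique molecular identifiers (UMIs), and a human cell had over 80% of them on human genes. Human cells in which NKG7, CST7 and CD8A together made up at least 0.1% of human UMIs were taken as TALL-104, and those with less than 0.02% as Jurkat. The rule gave 2746 TALL-104 and 8074 Jurkat cells, with 1025 human cells in between left out, and used none of the 10 genes. The 4 3′ v3 libraries came from 2 mixtures, named F (replicates 1 and 3) and G (replicates 2 and 4) by the study, and those of 5′ v1 from another, so that kit and mixture cannot be told apart. Libraries of 1 mixture share their cultures, and the p-values measure the spread between libraries, which may be technical.

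Depth was uneven between the lines. A library held 30 to 1101 TALL-104 cells at a median of 1930 to 2762 UMIs, and 288 to 3038 Jurkat cells at 10067 to 18530. Total UMIs ran from 24790710 to 251164949 a library, and 0 to 4 barcodes were shared between any pair of libraries. Cells with over 10% mitochondrial UMIs made up 37.3% and 52.0% of TALL-104 in the mixture G libraries and 21.4% and 0.363% in those of F. In Jurkat they made up 54.6% and 59.6% in G and 3.44% and 0.691% in F. The median share of mouse UMIs in TALL-104 cells reached 15.3% in 3′ v3 replicate 3. Of 14 TALL-104 markers that the rule did not use, 13 were higher in TALL-104 in 3′ v3, among them KLRC1, GNLY, FCER1G and TYROBP. The exception was CD8B, the second chain of CD8, which was at 1.43 ± 1.04 CPM, its UMIs scaled to 1000000 human UMIs of the line (SD, n = 4), in TALL-104 and 7.49 ± 1.34 in Jurkat. Of 14 Jurkat markers, 11 were tested and all 11 were lower in TALL-104. Over all genes, 28.5% were called higher and 39.4% lower in TALL-104 of 3′ v3. In Jurkat alone, 8 of the 14 TALL-104 markers had enough UMIs for a test, and in TALL-104 alone 5 of the 14 Jurkat markers. A gene was tested if it had enough UMIs in either line, so that nothing is drawn from these counts. CD4 was near 0 in both lines, at 0 to 0.445 CPM in TALL-104 and 0.778 to 3.77 CPM in Jurkat (3′ v3). The 11 markers of other human cell types summed to 16.6 to 65.0 CPM in TALL-104 and 21.5 to 64.0 CPM in Jurkat over the 7 libraries.

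Which ligands TALL-104 transcribed more than Jurkat was asked within each kit, on UMIs summed per library and line. Of the 10 genes, 9 had enough UMIs to be tested, and all 9 were higher in TALL-104 in both kits (edgeR's quasi-likelihood test with library as a block, Benjamini-Hochberg adjustment over 12156 genes). Over all genes, 28.5% were called higher and 39.4% lower in 3′ v3, and 12.9% higher and 15.3% lower in 5′ v1. CCL3, CCL4, XCL1, XCL2 and TNF passed the filter on low counts through TALL-104 alone. The filter thus bore on their being higher, and nothing is drawn from their place in the count. CCL5, LTA, LTB and TGFB1 passed it through Jurkat too. Their log2 differences were 9.0, 3.66, 6.81 and 1.95 in 3′ v3, where the median of all genes was −0.19. In 5′ v1 they were 12.61, 3.38, 7.85 and 1.41, where that median was −0.36. Run on the Jurkat sums alone, which are deeper, the filter asks for fewer CPM, and XCL1, XCL2 and TNF passed it too. In each of the 7 libraries every one of the 9 genes had a higher CPM in TALL-104 than in Jurkat.

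**Figure D1:**
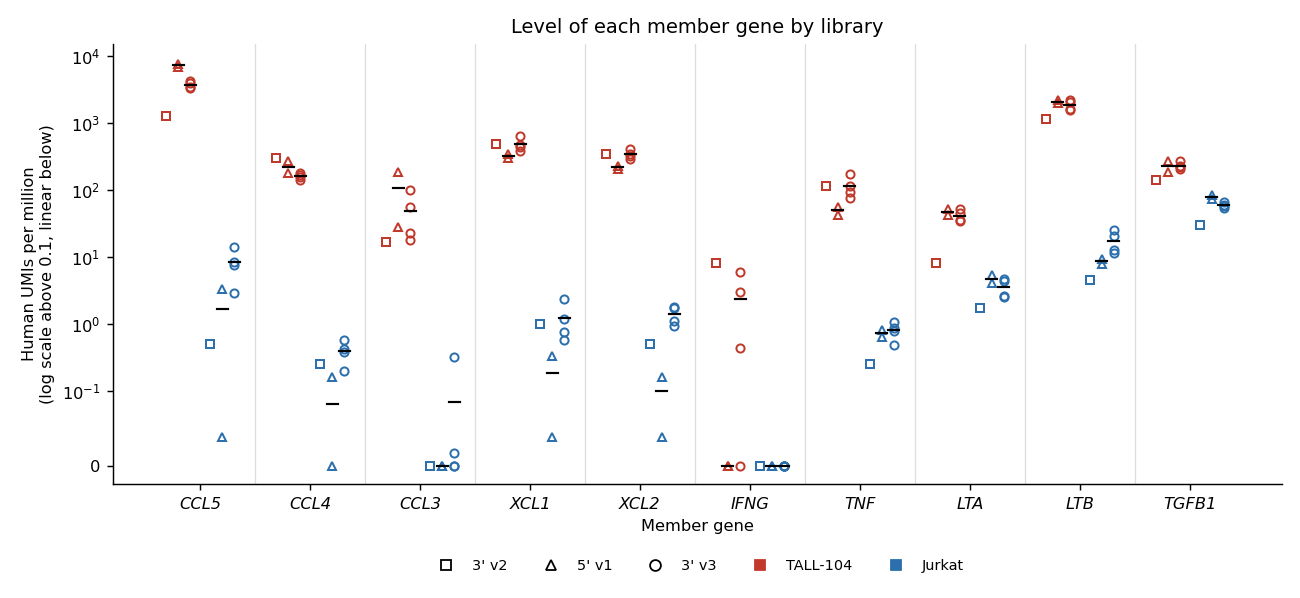
CPM (UMIs scaled to 1000000 human UMIs) of each member gene (vertical axis, logarithmic above 0.1 and linear below) in TALL-104 (red) and Jurkat (blue); each symbol is 1 library, its shape the kit, and the bar the mean of a kit with more than 1 library. CCL5 and LTB stood highest in TALL-104, IFNG was at 0 in Jurkat, and TGFB1 was the member with the nearest levels in the lines.

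CCL5, a chemoattractant that cytotoxic lymphocytes store and release, was the most abundant of the 10 in TALL-104. Replicates 1 to 4 of 3′ v3 held 3929, 3521, 4227 and 3317 CPM, those of 5′ v1 7638 and 7024 CPM, and the 3′ v2 library 1302 CPM. The Jurkat sums of the same 3′ v3 libraries held 2.94, 8.55, 7.74 and 14.3 CPM, those of 5′ v1 0.038 and 3.30 CPM, and 3′ v2 0.506 CPM. The lines thus did not overlap in any kit. The log2 difference in 3′ v3 was 9.0 ± 0.489 (SE; adjusted p = 2.84e-13), and 9.60 without replicate 4. That in 5′ v1 was 12.61 ± 0.806 (adjusted p = 3.31e-11). The latter was 10.67 without 5′ v1 replicate 1, 17.11 without replicate 2 and 9.84 with cells thinned to 1000 human UMIs. Wherever a 5′ v1 library is left out, 1 library of that kit remains, and the test assumes that it varies as the 3′ v3 libraries do. The Jurkat value of 5′ v1 rested on few cells. Of its 40 CCL5 UMIs in replicate 2, 27 came from 1 cell, and replicate 1 held 1 UMI in 1396 cells.

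CCL4, an attractant of monocytes and T cells, was at 144, 179, 159 and 171 CPM in TALL-104 of 3′ v3, 179 and 271 CPM in 5′ v1 and 299 CPM in 3′ v2. Jurkat held 0.203, 0.59, 0.388 and 0.431 CPM in 3′ v3. The 3′ v3 log2 difference was 8.82 ± 0.223. No p-value is given, as the gene passed the filter on low counts through TALL-104 alone. In 5′ v1 the pooled Jurkat cells held 2 CCL4 UMIs against 63 in TALL-104, a ratio of 3980 (95% counting interval 1057 to 33584). Both Jurkat UMIs came from 1 cell of replicate 2. The fitted log2 difference was 11.61, and 10.20 without 5′ v1 replicate 1. Without replicate 2 no Jurkat UMI was left, and TALL-104 was at least 1573-fold higher at a limit of 3 UMIs.

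CCL3, the close relative of CCL4 that acts on CCR1, was lower and the least even of the 9 genes tested, by the SD over the mean in TALL-104 of 3′ v3. TALL-104 held 18.1, 55.2, 23.2 and 99.1 CPM in 3′ v3, 28.3 and 184 CPM in 5′ v1, and 16.6 CPM from 2 UMIs in 3′ v2. Pooled over 3′ v3, Jurkat held 4 CCL3 UMIs and TALL-104 260, a ratio of 1162 (449 to 4298). Replicate 4 held 148 of these TALL-104 and 3 of these Jurkat UMIs, and without it the ratio was 2469 (434 to 98386) on 112 UMIs and 1 UMI. The log2 difference was 9.23 ± 0.403, and 10.35 without replicate 4. No p-value is given, as CCL3 too passed the filter on low counts through TALL-104 alone. No CCL3 UMI was found in the Jurkat cells of 5′ v1, where TALL-104 was at least 969-fold higher, taking 3 UMIs over the group as the limit of a count of 0. Replicate 2 held 17 of the 23 TALL-104 UMIs there, and the bound was 248-fold without it and 744-fold without replicate 1. These intervals and limits cover counting error only.

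CCL3 and CCL4 have near-identical gene copies, and reads that match more than 1 copy are not counted by the authors' pipeline, so that the split between copies is uncertain. CCL3L1 had no UMI in either line in any library. CCL3L3 was at 0 to 2.37 CPM in TALL-104 of 3′ v3 and at 4.72 to 10.8 CPM in that of 5′ v1. CCL4L1 reached 2.23 CPM and CCL4L2 1.49 CPM in 3′ v3 TALL-104, and all 4 copies were at 0 in Jurkat of the 3 kits.

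XCL1 and XCL2, nearly identical lymphotactins, stood close together. In TALL-104 of 3′ v3 XCL1 held 438, 636, 387 and 479 CPM and XCL2 341, 410, 329 and 294 CPM. The 5′ v1 libraries held 297 and 347 CPM of XCL1 and 231 and 206 CPM of XCL2, and 3′ v2 held 489 CPM and 348 CPM. XCL1 was thus above XCL2 in 7 of 7 libraries, with the same limit on reads shared by copies. In Jurkat of 3′ v3 they reached at most 2.37 and 1.83 CPM. The log2 differences were 8.82 ± 0.253 for XCL1 and 8.08 ± 0.204 for XCL2 in 3′ v3. No p-value is given, as both passed the filter on low counts through TALL-104 alone. In 5′ v1 the pooled ratios were 2401 (993 to 7563) for XCL1 and 2864 (939 to 14232) for XCL2, on 5 and 3 Jurkat UMIs. Without 5′ v1 replicate 1 or 2 the fitted log2 differences were 9.61 and 12.43 for XCL1 and 9.81 and 12.07 for XCL2. With thinned cells XCL1 came to 8.41 on 1 Jurkat UMI, and by the stricter marker rule Jurkat of 5′ v1 held no XCL1 UMI.

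The family of TNF differed widely in size. LTB, the membrane-anchored partner of LTA in the ligand of LTBR, was the second most abundant gene of the 10. TALL-104 held 1641, 2192, 1599 and 2104 LTB CPM in 3′ v3, 2190 and 1984 CPM in 5′ v1 and 1136 CPM in 3′ v2. Jurkat held 12.6, 20.6, 11.7 and 25.1 CPM in 3′ v3, 9.39 and 7.92 CPM in 5′ v1 and 4.56 CPM in 3′ v2, so that this line was low but not empty. The log2 difference was 6.81 ± 0.193 in 3′ v3 (adjusted p = 4.24e-18) and 7.85 ± 0.288 in 5′ v1 (adjusted p = 5.36e-15).

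TNF, the soluble inflammatory member, was at 93.8, 176, 75.7 and 114 CPM in TALL-104 of 3′ v3, 56.6 and 43.4 CPM in 5′ v1 and 116 CPM in 3′ v2. Its Jurkat levels lay between 0.253 and 1.08 CPM in the 7 libraries. TNF too passed the filter on low counts through TALL-104 alone, so that no p-value is given. The log2 difference was 7.07 ± 0.195 in 3′ v3 and 6.13 ± 0.587 in 5′ v1. The latter was 5.31 without 5′ v1 replicate 1 and 6.26 without replicate 2. With cells thinned to 1000 human UMIs it came to 8.30, where no Jurkat cell of 5′ v1 held a TNF UMI, so that its size is not read. LTA, which forms soluble trimers or joins LTB at the membrane, was at 35.5, 52.2, 45.4 and 34.1 CPM in TALL-104 of 3′ v3 and 51.9 and 43.4 CPM in 5′ v1. Jurkat held 2.60, 4.72, 2.55 and 4.42 CPM of LTA in 3′ v3 and 4.07 and 5.37 CPM in 5′ v1. The log2 difference of LTA was smaller, at 3.66 ± 0.234 in 3′ v3 (adjusted p = 5.32e-12) and 3.38 ± 0.592 in 5′ v1 (adjusted p = 0.000132). Without 5′ v1 replicate 1, on 4 TALL-104 UMIs of the 1 library left, the latter was 2.63 and not called (adjusted p = 0.139, the highest of 19 alternatives, of which the lowest was 8.28e-09). In the 3′ v2 library 1 LTA UMI in TALL-104 stood against 7 in Jurkat, a ratio of 4.68 (0.104 to 36.4), and a difference was not detectable at this depth.

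IFNG was close to the limit of detection. TALL-104 held 0, 2, 1 and 9 UMIs in 3′ v3, 0 in both 5′ v1 libraries and 1 in 3′ v2, whereas Jurkat held 0 in all 7 libraries. Pooled over 3′ v3, the 12 UMIs made TALL-104 at least 71.5-fold higher than Jurkat, again with 3 UMIs as the limit of a count of 0. Replicate 4 held 9 of the 12, and the 3 UMIs left without it lie at that limit and give no fold. The gene did not pass the filter on low counts and has no test. Its antisense neighbour IFNG-AS1, a transcript of the same locus, was at 8.67 to 16.5 CPM in TALL-104 and 0 to 0.034 CPM in Jurkat (3′ v3). It passed the filter on low counts through TALL-104 alone, and no p-value is given. The size of the IFNG-AS1 difference rests on 74 TALL-104 UMIs and 1 Jurkat UMI, a pooled ratio of 1323 (230 to 52964). The ratio was 455 (76.8 to 18467) without replicate 3. Without replicate 1 no Jurkat UMI was left, and TALL-104 was at least 343-fold higher.

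TGFB1 had the highest level of the 10 genes in Jurkat in all 7 libraries. TALL-104 held 276, 231, 204 and 221 CPM in 3′ v3, 189 and 271 CPM in 5′ v1 and 141 CPM in 3′ v2. Jurkat held 65.8, 57.8, 53.7 and 60.8 CPM, 75.0 and 85.4 CPM, and 30.1 CPM. The lines did not overlap, and the difference was the smallest of the 9. It came to a log2 value of 1.95 ± 0.123, or 3.87-fold, in 3′ v3 (adjusted p = 3.92e-12) and 1.41 ± 0.232, or 2.67-fold, in 5′ v1 (adjusted p = 6.34e-05).

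**Figure D2:**
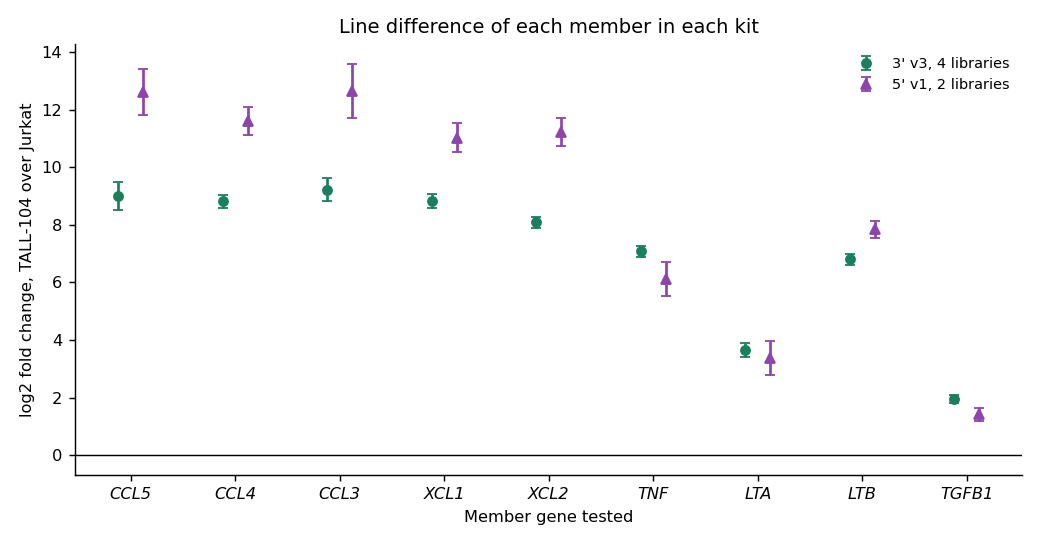
Log2 fold change of TALL-104 over Jurkat (vertical axis) for the 9 members tested, in 3′ v3 (circles, 4 libraries) and 5′ v1 (triangles, 2 libraries); error bars are 1 SE of the edgeR fit. All values lie above 0, from 1.95 for TGFB1 to 9.23 for CCL3 in 3′ v3 and from 1.41 for TGFB1 in 5′ v1.

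Ordered by mean CPM in TALL-104 of 3′ v3 (± SD, n = 4), the genes ran CCL5 at 3749 ± 408, LTB at 1884 ± 308, XCL1 at 485 ± 107, XCL2 at 344 ± 48.8 and TGFB1 at 233 ± 30.6. Below them came CCL4 at 163 ± 15.1, TNF at 115 ± 43.7, CCL3 at 48.9 ± 37.3, LTA at 41.8 ± 8.57 and IFNG at 2.36 ± 2.77. Each molecule gives 1 end fragment in these kits, so that the levels were not divided by length. The libraries of neighbouring genes overlapped between XCL1 and XCL2, CCL4 and TNF, TNF and CCL3, and CCL3 and LTA, and did not overlap for the other neighbours. When every cell was thinned to 1000 human UMIs, which gives each cell the same weight, the 3′ v3 log2 differences came to 6.89 for CCL5, 6.80 for XCL1, 6.42 for XCL2, 7.86 for CCL4, 8.12 for CCL3, 6.16 for TNF and 5.84 for LTB. CCL5, LTA, LTB and TGFB1, which in the main fit passed the filter on low counts through Jurkat too, remained called.

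The line differences were also tested against each other between kits. They differed for 2 of the 9 genes, both with the smaller line difference in 3′ v3. Over all genes, 0.337% were called with the larger and 1.06% with the smaller line difference in 3′ v3. These were CCL5 (log2 −3.61 ± 0.77, adjusted p = 0.0177) and XCL2 (log2 −3.13 ± 0.655, adjusted p = 0.0147). Neither remained called without 5′ v1 replicate 1 (log2 −1.63 and −1.72) or without 5′ v1 replicate 2 (log2 −7.99 and −3.87), with 1 library of 5′ v1 left in each, and the CCL5 value grew in size in the latter, so that the lost calls say nothing of the size. CCL5 was not called by DESeq2 (adjusted p = 0.0912). DESeq2 called 2 of the 9, XCL2 (adjusted p = 0.0289) and LTB (log2 −1.06, adjusted p = 0.0378). Over 19 alternatives the adjusted p ran from 7.56e-68 to 0.548 for CCL5 and from 4.18e-05 to 0.616 for XCL2. CCL5 was found in 2.46% to 6.12% of Jurkat and 3.14% to 6.50% of mouse cells in 3′ v3, and in 0.0716% and 0.314% of Jurkat and 0.395% and 0% of mouse cells in 5′ v1. In UMIs per 1000 cells, Jurkat held 0.716 and 62.8 in 5′ v1 and mouse cells 11.9 and 0, so that the order turned between its libraries. The part of free RNA in both values was not tested.

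The TALL-104 and Jurkat levels were then each compared between kits. Within TALL-104, 0 of 9 genes were called between 3′ v3 and 5′ v1 by edgeR or by DESeq2, against 2.2% of all genes called higher and 1.89% lower in 3′ v3. An unadjusted p under 0.05 was reached by 4 of the 9 and by 21.3% of all genes. The libraries of the kits did not overlap for 3 of the 9 that were higher in 3′ v3 and 2 that were lower, and for 19.4% and 20.9% of all genes. CCL5 and CCL4 were the genes lower in all 4 3′ v3 libraries than in both of 5′ v1 (for CCL5 log2 −0.84 ± 0.368, adjusted p = 0.199). For CCL4 the nearest libraries of the kits were almost equal, at 179.1 CPM in 3′ v3 and 179.4 CPM in 5′ v1 (log2 −0.32 ± 0.306, adjusted p = 0.584). TNF, XCL1 and XCL2 were each higher in all 4 (log2 1.2 ± 0.43, 0.69 ± 0.316 and 0.75 ± 0.325, adjusted p = 0.123, 0.219 and 0.197). The 3′ v3 libraries of 1 mixture at a time were also compared with 5′ v1. Each side then held 2 libraries of 1 mixture, so that these p-values measure the spread within a mixture and not between cultures. CCL5 came to log2 −0.61 with mixture F and −1.18 with G (adjusted p = 0.00616 and 2.02e-18). XCL1 came to 0.62 and 0.73 (adjusted p = 0.0378 and 0.000841), XCL2 to 0.82 and 0.54 (adjusted p = 0.00807 and 0.0322), and TNF to 0.90 and 1.31 (adjusted p = 0.0819 and 0.00189). CCL3 came to −1.65 with mixture F (adjusted p = 0.0111) and 0.0319 with G (adjusted p = 0.955). More of all genes were also called in these fits than in the main fit, as given in the last section, and no kit effect is read from them. Over 13 alternatives the highest adjusted p was 0.619 for CCL5, 0.56 for XCL1, 0.484 for XCL2 and 0.451 for TNF.

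Within Jurkat, 7 of the 10 genes could be tested between kits and XCL2 was called, higher in 3′ v3 (log2 3.89 ± 0.609, adjusted p = 0.00828), against 8.45% of all genes called higher and 9.06% lower. Without 5′ v1 replicate 1 it was not called (log2 2.98, adjusted p = 0.123), the only 1 of 12 alternatives in which the call was lost, and the lowest adjusted p was 1.9e-06. DESeq2 called 3 of the 7, namely XCL2, XCL1 (log2 2.85, adjusted p = 0.0145) and LTB (log2 0.91, adjusted p = 0.0176). LTB passed the threshold in 5 of 13 alternatives and XCL1 in 3 of 12. The XCL2 levels compared were 0.947 to 1.83 CPM in 3′ v3 and 0.038 and 0.165 CPM in 5′ v1, which is 28, 6, 67 and 17 UMIs against 1 and 2. Mouse cells of the same 3′ v3 libraries held 14, 11, 76 and 64 XCL2 UMIs and those of 5′ v1 2 and 0. The part of free RNA in this difference was not tested.

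TALL-104 of mixtures F and G was not alike in 3′ v3. Of the 9 genes of at least 10 CPM, 5 were higher in both libraries of mixture G than in both of F, 1 was higher in both of F and 3 overlapped. Among all 8187 genes of that level, 51.8% were higher in mixture G and 20.2% in F, so that the count of the members was near the background. CCL3 differed most, with means of 77.1 CPM in G and 20.6 CPM in F, a ratio of 3.74. TNF (145 against 84.8 CPM), XCL1 (558 against 412), LTB (2148 against 1620) and CCL4 (175 against 151) were the other genes higher in G, and CCL5 (3419 against 4078) was higher in F. With 2 libraries against 2, an exact permutation test could not reach the threshold, and none was run. In Jurkat LTB (22.9 against 12.2 CPM) was higher in both libraries of G, and TGFB1 overlapped. At means under 10 CPM, CCL5, CCL4, XCL1, XCL2, TNF and LTA were higher there in both libraries of G too, and CCL3 and IFNG overlapped. The share of all genes that did not overlap in Jurkat is not given here, so that nothing is drawn from these Jurkat values. The higher mitochondrial share of both lines in mixture G moved with these values, and its part was not tested. The line differences of CCL5, LTA, LTB and TGFB1, which passed the filter on low counts through Jurkat too, held in each mixture alone. For TGFB1 the log2 values were 2.03 in F and 1.96 in G. CCL3, which passed the filter through TALL-104 alone, came to 10.22 and 8.47.

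The share of cells in which a gene was detected was compared at equal depth, after each cell had been thinned to 1000 human UMIs. This left out 31 TALL-104 and 24 Jurkat cells. In TALL-104 of 3′ v3, CCL5 was detected in 86.2% ± 1.42 of thinned cells (SD, n = 4) and LTB in 72.2% ± 5.44. XCL1 was detected in 36.3% ± 7.44, XCL2 in 28.8% ± 4.51, TGFB1 in 20.5% ± 2.85, CCL4 in 14.8% ± 1.22, TNF in 10.0% ± 3.26, LTA in 3.65% ± 0.91 and CCL3 in 3.31% ± 2.56. In Jurkat the thinned shares were 6.26% ± 0.776 for TGFB1, 2.52% ± 1.26 for LTB, 1.2% ± 0.839 for CCL5 and at most 0.907% in any library for the rest. Each of these shares in TALL-104 lay above that in Jurkat in all 4 libraries. Without thinning, TALL-104 and Jurkat had LTA in 5.38% to 13.1% and 4.2% to 5.15% of cells and TGFB1 in 32.3% to 48.0% and 43.7% to 60.6%, and the deeper line was Jurkat. The unthinned TGFB1 share was higher in Jurkat in replicates 1, 3 and 4, against the order of the CPM, and higher in TALL-104 in replicate 2 (48.0% against 44.3%).

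**Figure D3:**
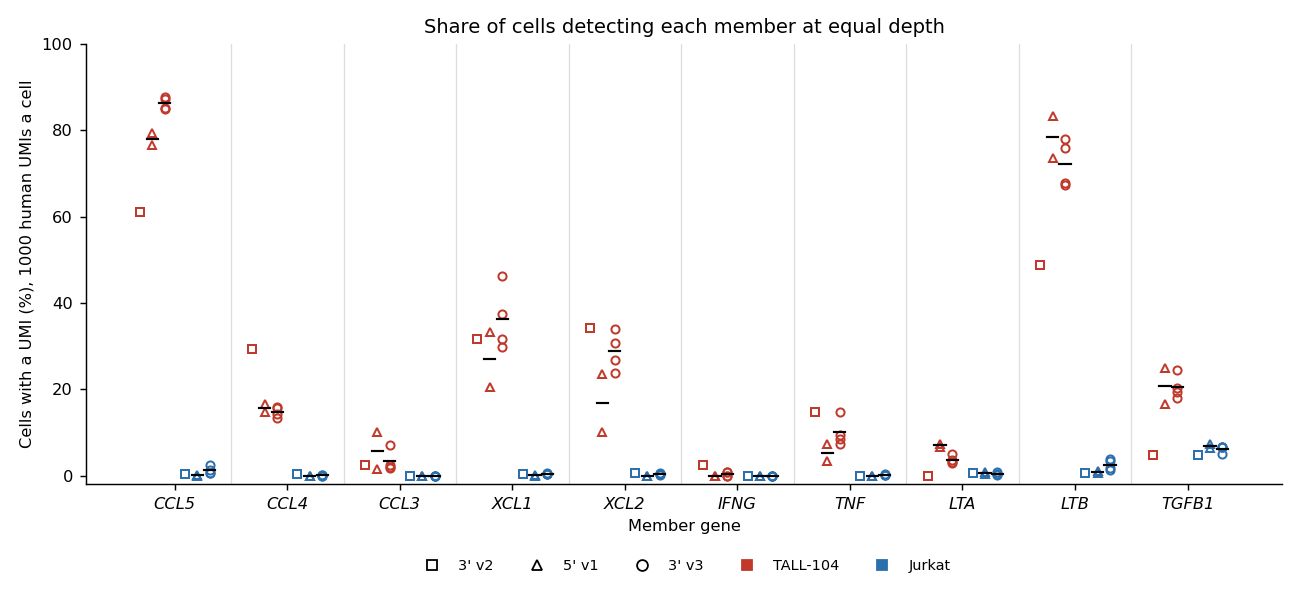
Percentage of cells with at least 1 UMI of each member after thinning to 1000 human UMIs (vertical axis), in TALL-104 (red) and Jurkat (blue); each symbol is 1 library, its shape the kit, and the bar the mean of a kit. CCL5 and LTB were found in most TALL-104 cells of 3′ v3 and 5′ v1, and no gene was found in over 7.38% of Jurkat cells.

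In 5′ v1 CCL5 was found in 79.4% (95% exact interval 67.9 to 88.3) and 76.7% (57.7 to 90.1) of 68 and 30 thinned TALL-104 cells and LTB in 73.5% and 83.3%. XCL1 was found in 20.6% and 33.3%, XCL2 in 23.5% and 10%, TGFB1 in 25% and 16.7%, and CCL4 in 14.7% and 16.7%. The shares were 7.35% and 3.33% for TNF, 7.35% and 6.67% for LTA and 1.47% and 10% for CCL3. The 5′ v1 means were 7.01% for LTA and 5.74% for CCL3, above those of 3′ v3, and 27.0% for XCL1, 16.8% for XCL2 and 5.34% for TNF, below them, with no test. The 5′ v1 mean for CCL5 was 78.0% beside 7331 CPM, and the 3′ v3 mean 86.2% beside 3749 CPM, so that the share and the level stood in opposite order between kits. In the 41 TALL-104 cells of 3′ v2, CCL5 was found in 61.0%, LTB in 48.8%, XCL2 in 34.1%, XCL1 in 31.7% and CCL4 in 29.3%. TGFB1 was found there in 4.88% of TALL-104 and 4.86% of Jurkat cells, 2 and 14 cells, a difference that was not detectable at this depth.

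IFNG was found in 0, 2, 1 and 6 TALL-104 cells of 3′ v3 without thinning, which is 0%, 0.82%, 0.0908% and 0.984%. Taking 3 cells as the limit of a count of 0, the 0 of 650 cells in replicate 1 allows a share of up to 0.462%, and the 0 of 70 and 0 of 30 cells of 5′ v1 allow up to 4.29% and 10%, where the exact 95% intervals reach 0.566%, 5.13% and 11.6%. These limits are for the share of cells with a UMI at this depth, not for the share that express the gene. No Jurkat cell of 8074 and no mouse cell of 18185 held an IFNG UMI.

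In droplet data free RNA gives UMIs in cells that do not express a gene, and the mouse cells of the same libraries, at a median of 23395 to 27403 UMIs against 10067 to 18530 in Jurkat, show its size for human genes. Droplets with a mouse and a human cell and reads assigned to the wrong species add to it. CCL5 was found in 2.46%, 3.09%, 6.12% and 4.99% of Jurkat cells of 3′ v3 and in 3.14%, 3.84%, 6.40% and 6.50% of mouse cells. The Jurkat share was thus below that of mouse cells in 4 of 4 libraries. The Jurkat rule left out human cells with more of the TALL-104 markers, and no such rule was set for mouse cells. The human cells left out between the lines held CCL5 in 26.4%, 40.0%, 33.8% and 43.0%. The order of the shares therefore cannot decide whether Jurkat expresses CCL5, and the share is not read as expression. In CCL5 UMIs per 1000 cells, however, Jurkat lay above mouse cells in replicates 2 (99.7 against 76.9) and 3 (151 against 129) and below them in replicates 1 (56.4 against 68.4) and 4 (151 against 306). By the share, Jurkat was also below mouse cells for CCL4 in 2 of 4 libraries (0.389% to 0.687% against 0.361% to 1.06%). The same held for XCL1 in 1 of 4 (1.03% to 1.81% against 0.701% to 2.49%) and CCL3 in 4 of 4 (0% to 0.34% against 0.0722% to 0.529%). XCL2 was found in more Jurkat than mouse cells in 4 of 4 libraries (1.37% to 1.88% against 0.4% to 1.32%).

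LTB, LTA and TGFB1 stood apart from this background in Jurkat. TGFB1 was found in 60.6%, 44.3%, 59.2% and 43.7% of Jurkat cells of 3′ v3 and in 1.47%, 0.981%, 3.06% and 2.34% of mouse cells. LTA was found in 4.54%, 5.15%, 4.58% and 4.2% against 0.0334%, 0.327%, 0.274% and 0.642%, and in 5′ v1 in 7.09% and 9.11% against 0 of 2529 and 0 of 1193 mouse cells, which allows up to 0.119% and 0.251%. LTB was found in 12.5%, 11.3%, 13.8% and 11.6% of Jurkat cells against 1.90%, 3.03%, 3.65% and 5.29%. In replicate 4 of 3′ v3, however, mouse cells held 343 LTB UMIs per 1000 cells and Jurkat 264. TNF was found in 0.889% to 1.1% of Jurkat cells of 3′ v3, with mouse cells at 0.1% to 1.32% and above Jurkat in replicate 4.

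**Figure D4:**
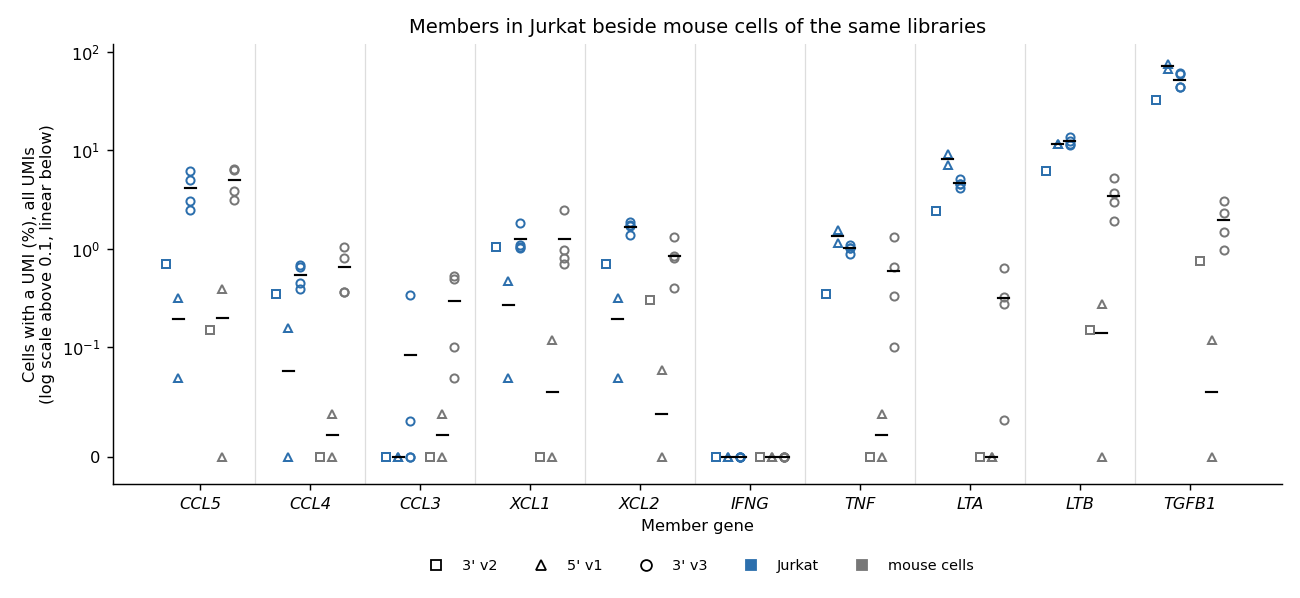
Percentage of cells with at least 1 UMI of each member without thinning (vertical axis, logarithmic above 0.1 and linear below) in Jurkat (blue) and in mouse cells (grey); each symbol is 1 library, its shape the kit, and the bar the mean of a kit. TGFB1, LTA and LTB in Jurkat lie above the mouse cells in the same kit, while CCL5 of 3′ v3 lies at their level.

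The genes were spread unequally over TALL-104 cells. In thinned cells of 3′ v3 CCL5 had 3 or more UMIs in 63.3%, 60.7%, 67.1% and 61.4% of cells and LTB in 22.4%, 38.9%, 21.9% and 33.1%. The variance over the mean, which is 1 where UMIs fall on cells at random, was 2.29 to 3.44 for CCL5 and 2.05 to 2.39 for LTB. It was 1.25 to 1.88 for XCL1, 1.29 to 1.80 for CCL3 and 1.27 to 1.59 for CCL4, whereas TNF (1.04 to 1.29), XCL2 (0.986 to 1.27), LTA (0.955 to 1.26) and TGFB1 (0.947 to 1.25) stood nearer to 1. At equal unevenness this ratio lies nearer to 1 where the mean is lower. In replicate 1 the mean was 4.26 UMIs a cell for CCL5 and 0.0204 for CCL3, so that the ratio does not order the genes by evenness. Before thinning single TALL-104 cells held up to 50 CCL5 UMIs, 42 of LTB, 27 of XCL1, 16 of CCL4 and 11 of CCL3 in 3′ v3.

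**Figure D5:**
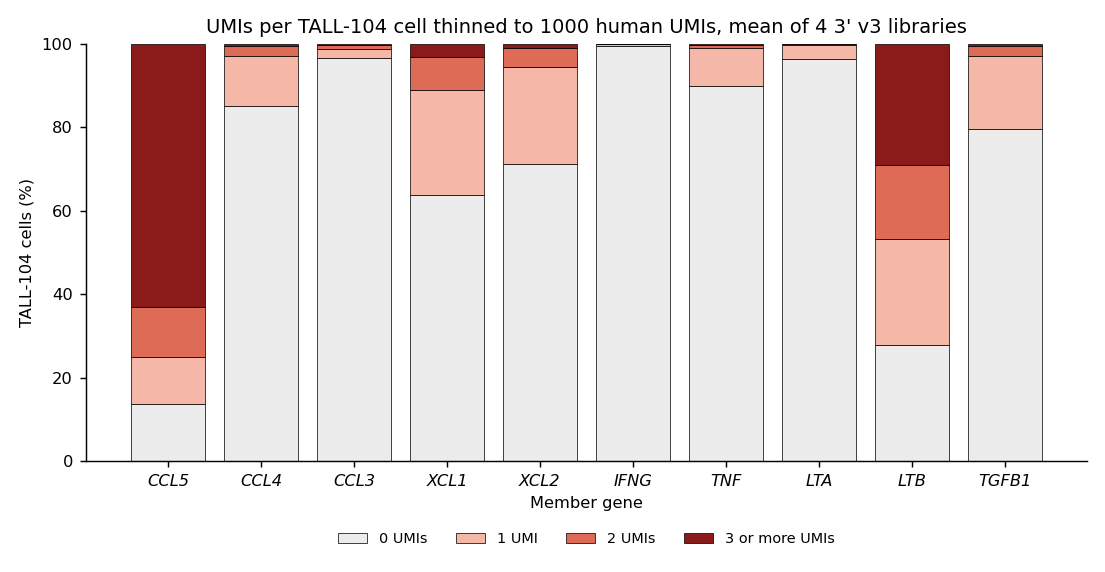
Percentage of thinned TALL-104 cells (vertical axis) with 0, 1, 2 or 3 and more UMIs of each member, as the mean over the 4 libraries of 3′ v3. Cells with 3 or more UMIs are common for CCL5 and LTB and rare for the other genes.

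Detection of pairs of genes was described over the 2576 thinned TALL-104 cells of 3′ v3, which share libraries and depth. CCL4 was found in 33.3% of the 81 cells with CCL3 and in 13.9% of the 2495 cells without it. By library the shares with and without CCL3 were 45.5% and 12.8%, 16.7% and 16.0%, 47.6% and 13.6%, and 25.6% and 14.8%, on 11, 6, 21 and 43 cells with CCL3. LTB was found in 85.1% of cells with LTA and 70.0% of those without, and LTA in 6.14% of cells with TNF and 3.11% of those without. XCL2 was found in 30.3% of cells with XCL1 and 26.5% without, and TNF in 8.58% of cells with CCL4 and 8.90% without. The first 3 of these 4 pairs had the same order in all 4 libraries. For LTA with TNF this rests on 3, 3, 4 and 4 cells with both, and the 5′ v1 and 3′ v2 libraries held no such cell. For TNF with and without CCL4 the order differed, at 4.71% and 9.06%, 12.8% and 15.1%, 7.74% and 7.37%, and 11.7% and 9.02% in replicates 1 to 4.

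The receptors of these ligands were measured in the same sums. Of 12 receptor genes, 10 could be tested in 3′ v3, and 9 were higher and 1 lower in TALL-104, against 28.5% and 39.4% of all genes. In Jurkat alone, 7 of the 12 passed the filter on low counts. The filter thus bore on some being higher, and nothing is drawn from the count. CCR1, a receptor of CCL3 and CCL5, was at 31.5 ± 13.9 CPM in TALL-104 and at 0.255 ± 0.217 CPM in Jurkat (SD, n = 4, with log2 7.10 ± 0.409). CCR3 was at 2.72 ± 1.1 and 0.152 ± 0.292 CPM. TNFRSF1B, the inducible TNF receptor, was at 67.8 ± 30.9 against 0.944 ± 0.767 CPM (log2 6.52 ± 0.273). CCR1, CCR3 and TNFRSF1B were under the filter on low counts in Jurkat of 3′ v3, and no p-value is given. TNFRSF1A, found on most cells, differed by log2 0.71 ± 0.133 (adjusted p = 7.09e-05).

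The receptor gene that was lower in TALL-104 was IFNGR2, the signalling chain of the interferon gamma receptor. It was at 1.78 ± 1.22 CPM in TALL-104 and 32.2 ± 3.35 CPM in Jurkat (log2 −4.16 ± 0.308), and also lower in 5′ v1 (log2 −4.51 ± 0.774). IFNGR2 was under the filter on low counts in TALL-104 of 3′ v3, and no p-value is given. Its partner IFNGR1, the ligand-binding chain, was higher in TALL-104, at 86.9 ± 10.0 against 21.5 ± 2.97 CPM (log2 1.97 ± 0.139, adjusted p = 2.71e-11). The TGFB1 receptor chains TGFBR1, TGFBR2 and TGFBR3 were higher by log2 2.40 ± 0.154, 1.72 ± 0.162 and 7.48 ± 0.592, and TNFRSF14, which binds LTA and TNFSF14, by 2.33 ± 0.197. XCR1 and LTBR, receptors of the lymphotactins and of the LTA and LTB complex, were at most 1.58 and 1.34 CPM in either line in 3′ v3 and were not tested. In 5′ v1, 5 of the 10 were called higher and 1 lower, against 12.9% and 15.3% of all genes.

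Other ligands gave a mixed picture. Of 35 further chemokine genes in the reference only 2 had enough UMIs to be tested. In 3′ v3 CCL28, a mucosal chemokine, was higher in TALL-104 (11.1 ± 5.03 against 0.115 ± 0.145 CPM). CXCL3, a neutrophil attractant, was lower there (0.111 ± 0.223 against 2.11 ± 0.71 CPM). CCL28 in Jurkat and CXCL3 in TALL-104 were under the filter on low counts in 3′ v3, and no p-value is given. In 5′ v1, CCL28 was called higher on 2 TALL-104 UMIs and no Jurkat UMI, which is under the limit of a count of 0, and CXCL3 was not called (adjusted p = 0.178). Of 41 other cytokine genes, 10 had enough UMIs in either line to be tested, so that nothing is drawn from the counts called. In 3′ v3, 8 were higher and 1 lower, against 28.5% and 39.4% of all genes. In 5′ v1, 4 were higher and 1 lower, against 12.9% and 15.3% of all genes. Those with the largest differences were IFNL1, an interferon of the lambda type (log2 8.24 ± 0.404), CSF2, the granulocyte-macrophage factor (6.12 ± 0.958), IL16, a CD4 ligand (5.02 ± 0.223), and IL32 (4.63 ± 0.191). IL32 reached 7488 ± 403 CPM in TALL-104 and 302 ± 40.4 CPM in Jurkat, and lay above CCL5 in all 4 3′ v3 libraries. CSF2 was at 0 to 13.4 CPM in TALL-104. MIF, the macrophage inhibitory factor, was lower, at 311 ± 157 against 832 ± 401 CPM (log2 −1.45 ± 0.138, adjusted p = 4.38e-09).

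Of 14 other ligands of the TNF superfamily, 11 were tested in 3′ v3, with 9 higher and 1 lower in TALL-104, against 28.5% and 39.4% of all genes. In 5′ v1, 8 were higher and 0 lower, against 12.9% and 15.3% of all genes. In Jurkat alone, 9 of the 14 passed the filter on low counts, so that it bore on some being higher, and nothing is drawn from the count. FASLG, the death ligand of cytotoxic cells, was at 41.4 ± 2.62 CPM in TALL-104 and 0.068 ± 0.095 CPM in Jurkat (log2 8.34 ± 0.385). TNFSF14, which shares TNFRSF14 and LTBR with the lymphotoxins, was at 259 ± 61.2 against 0.79 ± 0.271 CPM (log2 8.23 ± 0.177). TNFSF12 was at 112 ± 18.5 against 0.846 ± 0.458 CPM. Each of these was under the filter on low counts in Jurkat of 3′ v3, and no p-value is given. TNFSF15 was higher by log2 4.62 ± 0.558. TNFSF9, the ligand of a costimulatory receptor, was lower by log2 −0.81 ± 0.349 (adjusted p = 0.0443). Of 16 other receptors, all of chemokines except GPR183, 8 had enough UMIs in either line to be tested. The filter on low counts thus bore on some being higher, and nothing is drawn from the counts called. In 3′ v3, 6 were higher and 1 lower, against 28.5% and 39.4% of all genes. In 5′ v1, 7 were higher and 0 lower, against 12.9% and 15.3% of all genes. The largest differences were those of CXCR6 (165 ± 17.8 against 0.268 ± 0.198 CPM), CCR2 (32.6 ± 24.3 CPM against 0 in 4 libraries), CCR6 (53.9 ± 26.6 against 0.254 ± 0.292 CPM) and GPR183 (12.6 ± 7.88 against 0.082 ± 0.064 CPM). CX3CR1, under the filter in TALL-104 of 3′ v3, was lower there (0.42 ± 0.486 against 3.0 ± 1.89 CPM) but not called in 5′ v1 (adjusted p = 0.745).

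Of 25 regulators of cytokine genes and of cytokine signalling, 24 were tested in 3′ v3. In TALL-104, 21 were higher and 1 lower, against 28.5% and 39.4% of all genes. In Jurkat alone, where the sums are deeper and the filter on low counts asks for fewer CPM, 22 of the 25 passed it. In the fit of both lines TBX21 and CISH were under it in Jurkat of 3′ v3, and nothing is drawn from the count. Beside IFNG-AS1 the largest differences were those of TBX21, the T-box factor of type 1 responses (19.2 ± 4.92 against 0.298 ± 0.203 CPM, log2 5.64 ± 0.405), and of CISH and SOCS1, inhibitors that cytokine signals induce. CISH was at 108 ± 26.2 against 2.49 ± 0.769 CPM (log2 5.23 ± 0.18) and SOCS1 at 205 ± 15.1 against 6.97 ± 1.34 CPM (log2 4.92 ± 0.154). LTBP1, which binds latent TGFB1 in the matrix, was at 0 in TALL-104 of all 4 libraries and at 6.74 ± 2.64 CPM in Jurkat. No p-value is given, as its TALL-104 level was under the filter on low counts. In 5′ v1, 15 of the 24 were called higher and 0 lower, against 12.9% and 15.3% of all genes. Among the 15 was IFNG-AS1, on 2 TALL-104 UMIs. These genes, like the receptors and the other ligands, were compared in the same sums as the 10 members.

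For each member the genes with the nearest levels over the 14 sums of 7 libraries and 2 lines were named by the root mean square difference in log2(CPM + 1). CCL5 was nearest to KLRB1 (1.25), NKG7 (1.5) and LTB (1.52), and CCL4 to PYCARD (0.325), MATK (0.404) and S100A6 (0.493). XCL1 and XCL2 were both nearest to FCER1G (0.322 and 0.42), then to each other (0.428) and to CD44 (0.586 and 0.447). LTB was nearest to NKG7 (0.566), LGALS1 (0.852) and GZMA (1.02), TNF to NCR3 (0.419), TES (0.458) and LAT2 (0.489), and TGFB1 to GSTK1 (0.32), PPP1R2 (0.341) and GIMAP5 (0.409). LTA was nearest to EPSTI1 (0.387), AL592284.1 (0.546) and NECAB3 (0.551), and CCL3 to MYO1E (0.602), CAPN2 (0.624) and CCDC50 (0.639). For IFNG, on 13 UMIs, they were AF131215.5 (0.381), TRABD2A (0.383) and IGFALS (0.45). NKG7 was used to assign the cells, and the measure mostly reflects the level in the lines.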

How the data were processed

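Libraries were prepared with 10x Genomics 3′ v2, 5′ v1 and 3′ v3 kits. Per the labels and the methods of the study, the authors aligned and counted reads with Cell Ranger 3.0.2 against a combined hg19 and mm10 reference, after equalising read depth, and deposited raw UMI counts per gene and barcode, with no normalization. Here barcodes were filtered and assigned to lines by the rule given above, UMI counts were summed per library and line, and edgeR 4.0.16 (TMM, filterByExpr, quasi-likelihood test, library as a block, Benjamini-Hochberg, threshold 0.05) was run in R 4.3.3 on human genes, with DESeq2 1.42.0 as an alternative. The fits were tested on simulated data. SE values were the log2 difference divided by the root of the F statistic. Single shares have exact Clopper-Pearson 95% intervals, and a count of 0 is given the limit of 3 counts. No doublet caller was run. Droplets of mixed species were partly kept out of the human cells by the share of human UMIs, and human doublets partly by the gap between marker thresholds. Mouse cells had under 20% human UMIs, so that droplets with a mouse cell and a shallow human cell can remain among them. Alternatives changed normalization, filters, cell minimum, marker rule, thinning, the block, mixture and the libraries used. Pooled ratios without 1 library were added after the data were seen. The 10 genes, the other gene lists and the tests were chosen with earlier results of these data known. Genes of other lists were named where called in 3′ v3 with the largest differences, at most 4 each way; all members were named, and receptors where measured; 1 receptor gene is not reported here. The 3′ v2 library has no replicate and was not tested. No sequences were used here.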

Additional observations from a re-analysis of the deposited data

Results flagged for a closer look

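In groups of 4 libraries, 1 in 20 would be expected to show a value far from the others by chance; levels and thinned shares of the 10 members in both lines of 3′ v3 gave at most 40 such groups. CCL3 stood apart in replicate 4 (mixture G) in TALL-104 and in Jurkat: 7.12% of thinned TALL-104 cells held it there, against 1.73% to 2.46% in the other libraries, and its Jurkat level was 0.323 CPM (3 UMIs) against 0 to 0.0169. TGFB1 in thinned Jurkat cells was lowest in replicate 3, at 5.10% against 6.55% to 6.71%. The line difference itself differed between 3′ v3 and 5′ v1 for CCL5 (log2 −3.61, adjusted p = 0.0177) and XCL2 (log2 −3.13, adjusted p = 0.0147) by edgeR's test of that difference. Both rest on Jurkat sums of 41 and 3 UMIs in 5′ v1. CCL5 was found in 2.46% to 6.12% of Jurkat and 3.14% to 6.50% of mouse cells in 3′ v3, and the part of free RNA in both values was not tested.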

How the results depend on the processing

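In 3′ v3 CCL5, LTA, LTB and TGFB1, which passed the filter on low counts through Jurkat too, each kept direction and call in 19 of 19 alternatives. CCL3, CCL4, XCL1, XCL2 and TNF passed it through TALL-104 alone, and nothing is drawn from their calls. In 5′ v1 LTA alone lost its call, without replicate 1. Counts of genes called over all genes moved more than 1.5-fold in the other comparisons. With cells thinned to 1000 human UMIs, 2080 genes were called in 5′ v1, 104 for the difference between kits, and 95 and 407 between kits in TALL-104 and Jurkat, against 3434, 170, 368 and 2473. Leaving out 1 library at a time gave 1215 to 3739, 2 to 308, 9 to 595 and 115 to 2150. Without the filter on low counts, 290 were called for the difference and 707 in TALL-104, and without the library block 9 for the difference. With 3′ v3 of mixture F or G alone, 555 and 1201 were called for the difference, 1263 and 2411 in TALL-104, and 8208 and 9404 in Jurkat. The cause was not tested.

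Signs turned for values that were not called. For the difference between kits these were TNF when thinned (−2.14) and LTA with over 95% human UMIs (−0.0628), without 3′ v3 replicate 3 (−0.00586) and with mixture G (−0.201). Between kits in TALL-104 they were CCL4 when thinned (0.17), CCL3 without 5′ v1 replicate 2 (0.808) and with mixture G (0.0319), LTA without 5′ v1 replicate 1 (0.183), LTB without the filter (0.0481), when thinned (0.263) and without 5′ v1 replicate 1 (0.154), and TGFB1 without 3′ v3 replicate 1 (−0.0202) and with mixture G (−0.00982). In Jurkat TNF turned without 5′ v1 replicate 1 (−0.0909), 3′ v3 replicate 1 (−0.0528) or 4 (−0.0545) and with mixture F (−0.101). TALL-104 and Jurkat of 1 library were paired by the library block. Between kits, however, replicate numbers follow accession order. No paired analysis was possible because they pair nothing there. Over the libraries left out in turn, the values ran from −0.00586 to 1.06 for LTA (difference), and in TALL-104 from −1.75 to 0.808 for CCL3, −0.256 to 0.183 for LTA, −0.128 to 0.154 for LTB and −0.0202 to 0.421 for TGFB1, and in Jurkat from −0.0909 to 0.276 for TNF. Depth limits IFNG and, in 3′ v2 and 5′ v1 with 30 to 70 TALL-104 cells a library, the rarer genes.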
